A study of Mus musculus with 3 samples.

Results

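The phagocyte NADPH oxidase is described here through 6 of its genes, Cybb, Cyba, Ncf1, Ncf4, Rac1 and Rac2, chosen by symbol among the 55536 annotated genes of the deposited tables; they are not a complete list of the complex. Levels come from total RNA-seq, with ribosomal RNA removed, of the cytosolic fraction of primary C57BL/6J macrophages, grown from mouse bone marrow. All 3 libraries, replicates 1 to 3 of 1 group, come from cells given 100 ng/ml Lipid A, the moiety of endotoxin recognised by the receptor TLR4, for 12 h, kept for 12 h after washing it out, and given 100 ng/ml again for 90 min. No unexposed or singly exposed cells were analysed here, so every value is a level and none is a response. Sex and age were not collected, and a single donor record covers all 3 biosamples; the spread given is that between these samples and may be partly technical.

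The oxidase transfers electrons from cytosolic NADPH across the membrane to oxygen and so makes superoxide, the starting point of the oxidative burst that macrophages and neutrophils use against engulfed microbes. Its catalytic core, flavocytochrome b558, is a pair of membrane proteins encoded by Cybb and Cyba. In a resting cell the regulatory subunits stay in the cytosol, and on stimulation they and a GTP-bound Rac GTPase move to the membrane and switch the core on. Loss of CYBB, CYBA, NCF1 or NCF4 causes chronic granulomatous disease or a related immune defect in humans.

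Levels are given in TPM, the unit of relative transcript abundance that corrects for transcript length and so allows genes to be compared within a library. Libraries held 40637857, 70407572 and 49678390 expected counts on annotated genes in replicates 1, 2 and 3, and the 6 oxidase genes had between 3779 (Ncf4, replicate 1) and 150117 (Cybb, replicate 2) counts each. The signal recognition particle RNA 7SL took 56.4 to 60.6% of all TPM in the gene table and nuclear protein-coding genes 28.0 to 33.2%: rescaled so that nuclear protein-coding genes alone make up the TPM total, levels are 3.02 to 3.58 times higher. The labelled cell type was checked on fixed markers: 10 of 10 macrophage markers reached 1 TPM in every library, and the receptors Csf1r and Adgre1 averaged 146 ± 12.2 and 652 ± 113 TPM (SD, n = 3). Of 13 neutrophil markers 3 did (S100a9, S100a8 and Mmp8, at 6.58, 4.12 and 2.15 TPM), with a summed level of 10.9 to 15.9 TPM over all 13, and Ly6g and Retnlg had 0 counts in all 3 libraries. Of the markers of dendritic cells, B cells, T and NK cells, and eosinophils, 1 of 6, 1 of 4, 0 of 5 and 0 of 3 reached 1 TPM. Those that did were Ccr7 of dendritic cells (1.45 TPM) and Cd79b of B cells (1.31 TPM). For comparison, 40.1% of protein-coding genes and 16.7% of all annotated genes reached 1 TPM in every library.

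Several results turn on short stretches that separate transcripts or paralogs, shown here as the transcribed strand reads 5′ to 3′ in mm10 (GENCODE M21). The first is an exon of 57 nt at chr5:143509597-143509653, minus strand, that lies in the coding sequence of the transcript Rac1-202 and of no other annotated Rac1 transcript. In humans, inclusion of an exon of this length gives the splice form RAC1B, which exchanges nucleotide fast.
Rac1 exon: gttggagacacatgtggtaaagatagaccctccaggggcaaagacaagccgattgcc
The second is a coding exon of 84 nt at chr8:122426936-122427019, minus strand, that is present in Cyba-201 and absent from Cyba-202.
Cyba exon: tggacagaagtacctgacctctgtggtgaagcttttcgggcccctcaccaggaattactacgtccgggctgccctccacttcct
The third is a coding stretch of 42 nt at chr5:134221988-134222029, minus strand, by which 1 exon of Ncf1-201 is longer than in Ncf1-202.
Ncf1 extension: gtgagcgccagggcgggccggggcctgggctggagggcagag

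Rac1 and Rac2 are paralogs, and their coding sequences are each 576 nt long without the stop codon and were identical at 444 positions (77.1%), with a longest identical run of 29 nt. They were less alike at the end that encodes the basic, membrane-targeting tail, where 33 of the last 60 coding nt were identical, and which is printed below from chr5:143506978-143507037 and chr15:78561911-78561970, both minus strand. Capitals mark the bases that differ.
Rac1 tail: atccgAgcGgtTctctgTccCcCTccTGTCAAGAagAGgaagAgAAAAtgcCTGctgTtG
Rac2 tail: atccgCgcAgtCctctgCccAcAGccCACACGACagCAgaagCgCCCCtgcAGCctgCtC
Over all annotated transcripts, 26 of 4494 stretches of 31 nt in Rac1 also occurred in transcripts of other genes, 24 of them in Gm45522. In Rac2 125 of 3101 did, and the most that 1 gene shared were 41, in Tor1aip2. Transcripts were searched as transcribed, so sequence shared with the opposite strand of another gene was not counted. The posterior SD of the count that the deposited gene table gives was at most 0.119% of the count for any of the 6 genes, the highest being Rac1.

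Of the membrane core, Cybb encodes gp91phox (NOX2), the subunit that carries the electrons. Cybb (ENSMUSG00000015340.10, mm10 chromosome X, 9435252 to 9487771, minus strand) stood at 275 TPM in replicate 1, 281 in replicate 2 and 236 in replicate 3, a mean of 264 ± 24.4 TPM (SD, n = 3). Cyba encodes p22phox, the partner that stabilises gp91phox and docks the cytosolic subunits. Cyba (ENSMUSG00000006519.11, chromosome 8, 122424776 to 122432930, minus strand) stood at 547, 603 and 476 TPM in replicates 1, 2 and 3, a mean of 542 ± 63.7 TPM. Every Cyba value lay above every Cybb value. Cyba exceeded Cybb by 0.99, 1.10 and 1.01 on the log2 scale in the 3 libraries, a mean of 1.03 ± 0.06 and a ratio of 2.05. Counts go the other way, with 16991, 36996 and 21247 for Cyba and 77519, 150117 and 94043 for Cybb; counts are not divided by length, and the main transcript is 744 nt long for Cyba and 4752 nt for Cybb.

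Ncf1 encodes p47phox, the organizer that is phosphorylated on activation and then binds p22phox. Ncf1 (ENSMUSG00000015950.13, chromosome 5, 134220053 to 134229625, minus strand) stood at 169, 179 and 157 TPM in replicates 1, 2 and 3, a mean of 168 ± 11.1 TPM. Ncf4 encodes p40phox, whose lipid-binding domain holds the complex on the phagosome membrane. Ncf4 (ENSMUSG00000071715.12, chromosome 15, 78244801 to 78262580, plus strand) stood at 57.7, 55.6 and 47.7 TPM, a mean of 53.6 ± 5.27 TPM, the lowest of the 6 genes in every library. The log2 ratio of Ncf4 to Ncf1 was -1.55, -1.69 and -1.72, a mean of -1.65 ± 0.09, which puts Ncf1 3.14 times above Ncf4. Ncf1 in turn lay below Cybb in each library, with a mean log2 ratio of -0.65 ± 0.06.

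The GTPase that activates the oxidase can be Rac1, which most cell types express, or Rac2, which is largely restricted to blood cells. Rac1 (ENSMUSG00000001847.14, chromosome 5, 143503634 to 143528036, minus strand) stood at 118, 126 and 111 TPM in replicates 1, 2 and 3, a mean of 118 ± 7.54 TPM. Rac2 (ENSMUSG00000033220.7, chromosome 15, 78559167 to 78572783, minus strand) stood at 146, 205 and 190.1 TPM, a mean of 180.4 ± 30.8 TPM. Rac2 was above Rac1 in all 3 libraries, by 0.31, 0.70 and 0.78 on the log2 scale, a mean of 0.60 ± 0.25. Against the catalytic chain, the log2 ratio of Rac2 to Cybb was -0.56 ± 0.32, the widest spread of these 5 pairs. The sign of the ratio was the same in all 3 libraries for each of the 5, but a sign-flip test over 3 libraries cannot go below an exact two-sided p of 0.25, so no p is given.

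**Figure D1:**
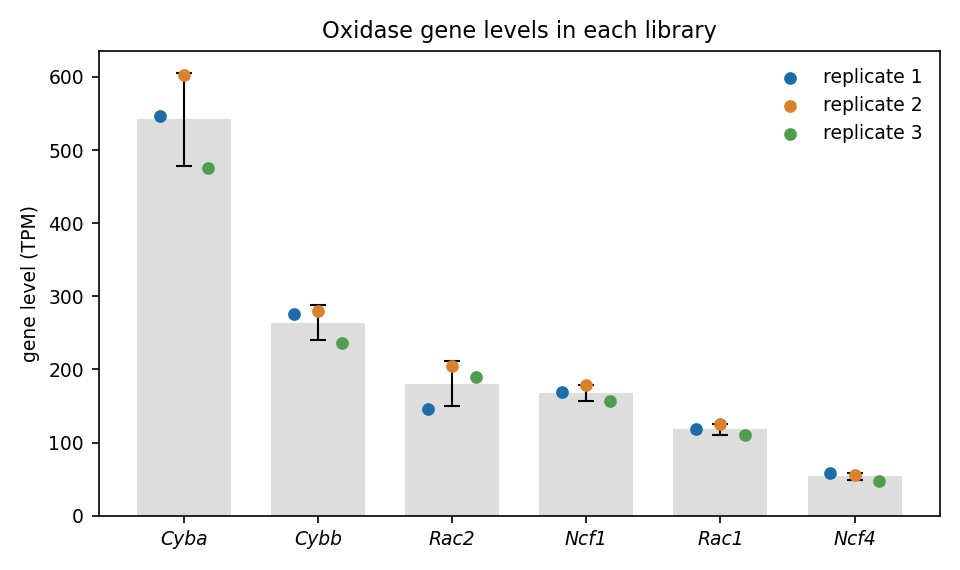
Gene level in TPM (vertical axis, from 0) of the 6 oxidase genes in order of their mean. Points are the 3 libraries, bars the mean and whiskers 1 SD; Cyba lies highest at 476 to 603 TPM, Ncf4 lowest at 47.7 to 57.7 TPM, and the values of Rac2 and Ncf1 overlap.

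In order of mean level the genes ran Cyba, Cybb, Rac2, Ncf1, Rac1, Ncf4. The order of Rac2 and Ncf1 was not settled by the replicates. Their log2 ratio (Rac2 to Ncf1) was -0.21, 0.20 and 0.28 in replicates 1, 2 and 3, a mean of 0.09 ± 0.26, and their values overlap. The other neighbours in the order had no overlap between their library values: the log2 ratio was 0.56 ± 0.32 for Cybb to Rac2, 0.51 ± 0.01 for Ncf1 to Rac1 and 1.14 ± 0.10 for Rac1 to Ncf4. Among the 8838 protein-coding genes at 1 TPM or more in all 3 libraries, Cyba ranked 62, Cybb 143, Rac2 239, Ncf1 268, Rac1 414 and Ncf4 907. Detection at that threshold held for 6 of 6 oxidase genes, against 40.1% of protein-coding genes and 16.7% of all annotated genes.

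A second deposited quantification, made directly from the reads and not from alignments, gave lower TPM for every one of these genes, with means of 348 (Cyba), 158 (Cybb), 129 (Rac2), 90.6 (Ncf1), 68.8 (Rac1) and 28.7 TPM (Ncf4). There, 7SL took 21.9 to 30.1% of TPM and nuclear protein-coding genes 15.1 to 17.9%. The order of the means was the same. After both tables were rescaled over nuclear protein-coding genes, the means from the second table and the gene table were 933 and 875 for Cybb, 2052 and 1797 for Cyba, 536 and 558 for Ncf1, 169 and 177 for Ncf4, 407 and 393 for Rac1, and 769 and 605 for Rac2. As a ratio between the tables, Rac2 moved most on this rescaled scale and least in deposited TPM. As a difference in rescaled TPM, Cyba moved most.

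The Rac genes are the members in which the transcripts behind a gene's TPM matter most. Rac2 has 3 annotated transcripts. Rac2-201, the transcript of 3038 nt that holds the full coding sequence, took 81.0, 57.0 and 63.9% of the gene's TPM in replicates 1, 2 and 3 (67.3 ± 12.3%, SD, n = 3) and 99.0% of its counts. Rac2-203, a fragment of 254 nt with 2 exons whose annotated coding sequence has no start, took 17.9, 42.4 and 35.5% of TPM (31.9 ± 12.7%) on 67.7, 534 and 276 counts, which is 0.860% of the gene's counts. The mean share of Rac2-203 was thus far larger in TPM, which divides counts by effective length, than in counts. Library inserts were 250 to 400 nt, near or above the 254 nt of Rac2-203, so its TPM is sensitive to this correction. Whether its share reflects a real transcript was not tested. The second table put Rac2-203 higher, at 48.4 ± 5.31% of TPM.

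Without that fragment the spread of Rac2 in deposited TPM was narrow, and this level was not rescaled over nuclear protein-coding genes. Rac2-201 alone stood at 118, 117 and 121 TPM, a mean of 119 ± 2.30 TPM, while the gene total of 146, 205 and 190.1 TPM follows the 26.1, 87.1 and 67.5 TPM of Rac2-203. The deposited interval of the Rac2 level was also wide, from 128 to 160 TPM in replicate 1, and there it did not overlap the interval of replicate 2, from 191 to 216 TPM. Scaled counts, which ignore transcript length, had a coefficient of variation (CV, SD over mean) of 6.50% for Rac2, against 17.1% for its TPM.

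Rac1 has 4 annotated transcripts, and most of its TPM was on those that either lack a coding sequence or hold the extra exon. Rac1-204, a processed transcript of 585 nt with no coding sequence, took 48.7, 53.7 and 49.7% of the TPM (50.7 ± 2.64%) but 13.5% of counts. Rac1-202, whose coding sequence of 633 nt includes the exon of 57 nt printed above, took 44.5, 41.0 and 43.8% (43.1 ± 1.86%) and 68.1% of counts. Rac1-201, with the standard coding sequence of 576 nt, took 6.78, 5.35 and 6.55% (6.23 ± 0.77%) and 18.4% of counts. The shares in the second table were 53.3% (Rac1-204), 43.8% (Rac1-202) and 2.79% (Rac1-201). Rac1-202 exceeded Rac1-201 by 2.80 ± 0.12 on the log2 scale in the first table and by 3.99 ± 0.19 in the second.

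This ratio is not a measure of how often the exon is included. The annotated 3′ end of Rac1-202 lies 1848 nt upstream of that of Rac1-201 along the transcribed strand, and no annotated coding transcript of Rac1 joins the nearer end to the form without the exon. Reads from such an RNA have no transcript of their own in this annotation, and the tables hold no counts per exon or junction. Part of the 3′ region of Rac1 is also overlapped on the other strand by Daglb (5.70 ± 0.34 TPM), and no source used here says whether counting was stranded.

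**Figure D2:**
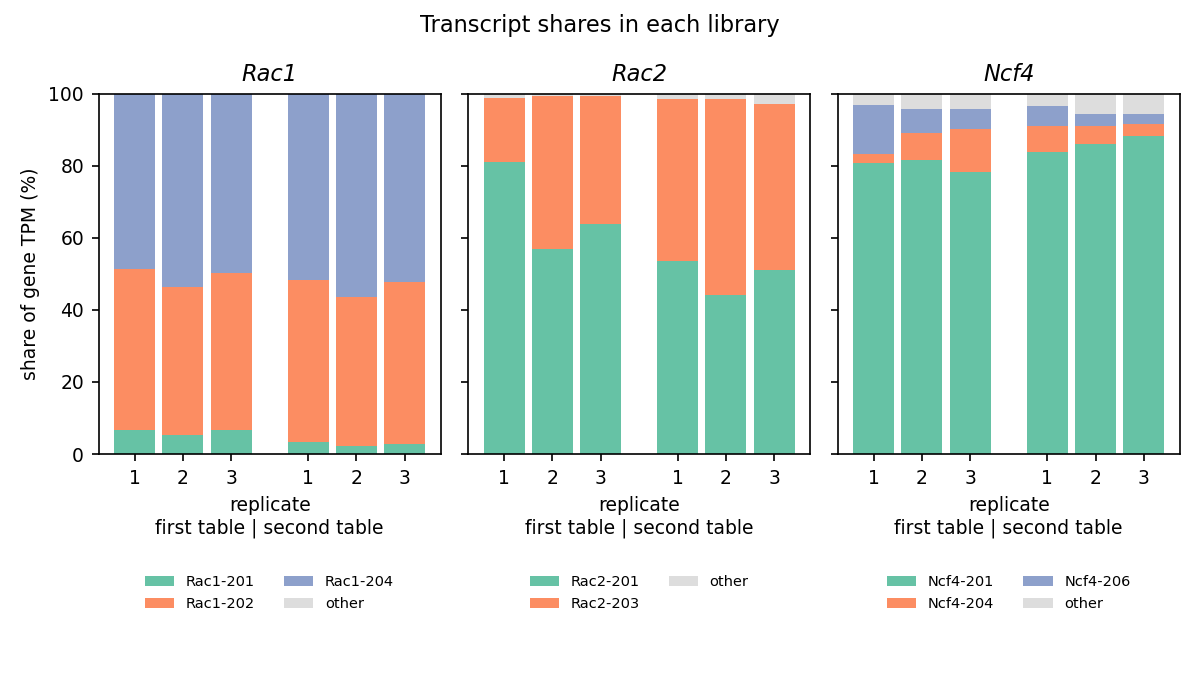
Share of the gene's TPM (vertical axis, percent) taken by each annotated transcript of Rac1, Rac2 and Ncf4 in the 3 libraries, in the first transcript table (left bars of each panel) and the second (right bars). Transcripts under 5% in both tables are pooled as other; Rac2-203 covers 17.9 to 42.4% of Rac2 in the first table, and Rac1-201 stays under 7% of Rac1 in both.

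The remaining members were carried mainly by 1 coding transcript. Cybb-201 took 99.6 ± 0.12% of the Cybb TPM. Cyba-201, which holds the exon of 84 nt printed above, took 96.3 ± 0.62% of the Cyba TPM, and Cyba-202, which lacks it and keeps the reading frame with a coding sequence of 492 nt, took 4.12, 2.92 and 3.52%. Ncf1-202 took 96.2 ± 0.23% of the Ncf1 TPM, and Ncf1-201, with the extension of 42 nt, took 3.14, 3.03 and 2.92%. Both minor forms kept a similar share in the second table, with 3.16 ± 0.56% for Cyba-202 and 3.21 ± 0.19% for Ncf1-201. Ncf4-201 took 80.2 ± 1.74% of the Ncf4 TPM, and 2 short transcripts with a retained intron, Ncf4-206 and Ncf4-204, took 8.60 ± 4.54% and 7.31 ± 4.88% on 2.50 and 0.794% of counts. These last shares varied between libraries, from 5.51 to 13.8% for Ncf4-206 and from 2.30 to 12.0% for Ncf4-204. The second table gave lower shares in the opposite order, 3.86 ± 1.55% for Ncf4-206 and 5.20 ± 1.90% for Ncf4-204, and 86.0 ± 2.26% for Ncf4-201.

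When levels were summed only over protein-coding transcripts with a complete coding sequence, Cyba, Cybb and Ncf1 kept 99.8, 99.6 and 99.3% of their TPM, while Ncf4 kept 80.2%, Rac2 67.3% and Rac1 49.3%. Means on this scale were 541 TPM for Cyba, 263 for Cybb, 167 for Ncf1, 119 for Rac2, 58.2 for Rac1 and 43.1 for Ncf4. Ncf1 then lay above Rac2 in all 3 libraries and in both tables, with a log2 ratio of Rac2 to Ncf1 of -0.49 ± 0.13, the opposite sign to the gene-level mean. Rac2 exceeded Rac1 by 0.97, 1.00 and 1.12 (1.03 ± 0.08), a ratio of 2.04 against 1.51 at the gene level, with a smaller spread. The Rac1 level here leaves out Rac1-204, with 50.7% of the gene's TPM and 13.5% of its counts. It depends on how reads were assigned among Rac1 transcripts, with the limit of the annotation given above, so the ratio is not a better estimate for that reason. The distance between Rac1 and Ncf4 narrowed to 0.44 ± 0.12.

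**Figure D3:**
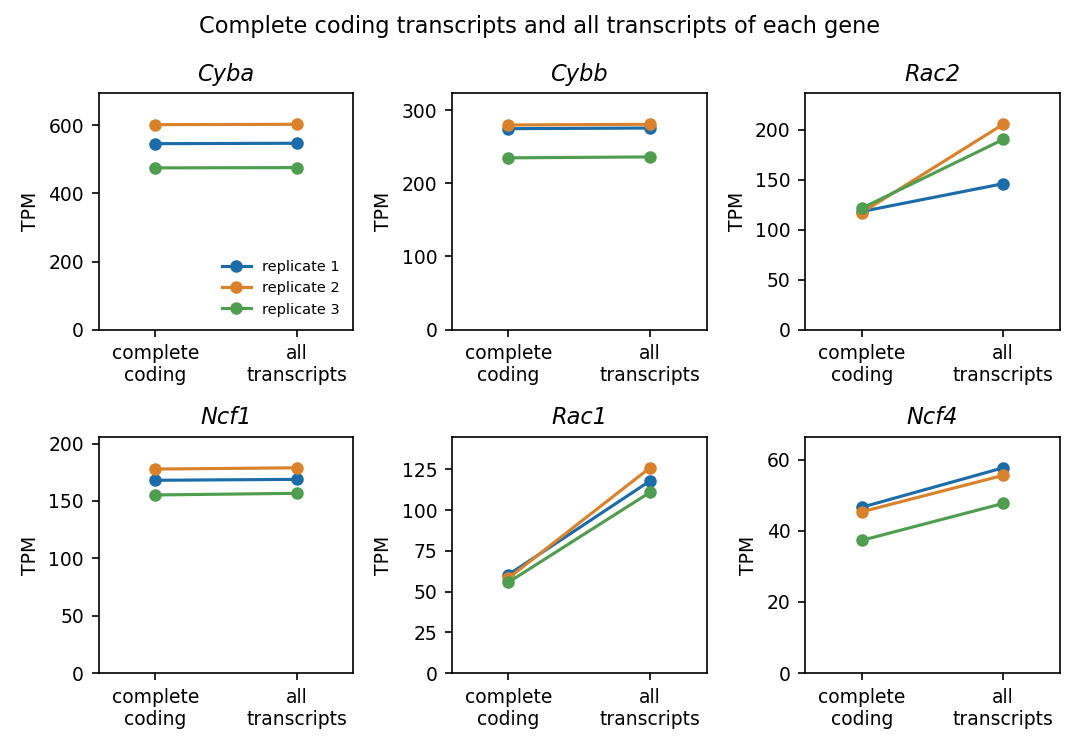
TPM (vertical axes, each from 0) summed over complete coding transcripts and over all transcripts of each gene, with 1 line for each library. Lines are nearly level for Cyba, Cybb and Ncf1; the Rac2 lines spread from 117 to 121 TPM over complete coding transcripts and from 146 to 205 TPM over all transcripts.

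Variability between libraries was tested on counts in edgeR, where a gene is called if its counts differ between libraries more than the trend for genes of its abundance, at a Benjamini-Hochberg adjusted p under 0.05. Of 12256 genes tested, 240 were called, or 1.96%, and 0 of the 6 oxidase genes were; none of them had an unadjusted p under 0.05 either, under this fit or with DESeq2 size factors, against 6.88 and 6.92% of all genes tested. With 6 genes these counts lie near the background and set the members apart from no other gene. Among the 6, Rac1 was the steadiest, with 258, 261 and 262 TMM-scaled CPM (counts relative to library size) and a CV of 0.661%, and Cyba the least steady, with 438, 511 and 421 and a CV of 10.4%. The median CV was 9.99% over the 1991 genes at least as abundant as the lowest oxidase gene, which Cyba exceeded. A gene not called variable is not shown to be equal between libraries, with n = 3.

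On TPM, replicate 3 was the lowest library for 5 of the 6 genes and Rac2 was the exception, with its lowest value in replicate 1. That order changed with the scale: rescaled over nuclear protein-coding genes, replicate 1 was the lowest for 5 of the 6, and Ncf4 was lowest in replicate 3. The level of the nuclear RNA Malat1 was 103, 132 and 345 TPM in replicates 1, 2 and 3. The small nuclear RNA Rn7sk took 2.12, 3.79 and 7.63% of TPM. Both of these RNAs were highest in replicate 3, and the part of nuclear RNA in the TPM order was not tested.

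Likeness of pattern was measured as the largest difference over the 3 libraries after each gene's mean log2 TPM was subtracted. It is a description over 3 libraries that share their scaling. The 5864 protein-coding genes compared had a mean of 5 TPM or more. Closest to Cybb were Pi4kb, Rpl32 and Atp5g1, and closest to Cyba were Bsdc1, Lrrc59 and Ppp2cb. Uprt, Tsg101 and Atp6ap1 lay closest to Ncf1, and Plekhb2, Samd4b and Gnaq to Ncf4. Gtdc1, Emc3 and Dlat lay closest to Rac1. Such likeness was common: between 14.9% (Cyba) and 28.4% (Ncf1) of genes lay within 0.1 of these 5 patterns. For Rac2 only 1.76% did, with Galc, Utp6 and Snrpa nearest, and Rac2 differed from the other 5 oxidase genes by 0.29 to 0.40, whereas those 5 differed among themselves by 0.01 to 0.11. Over complete coding transcripts alone, Rac2 lay 0.09 (Rac1) to 0.23 (Ncf4) from the others and the other 5 lay 0.05 to 0.16 from each other. These ranges overlap, and Rac2 stood less far apart. Its distances to Cybb (0.19), Cyba (0.21) and Ncf4 (0.23) were still above the largest among the other 5.

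The other genes of the pathway were taken as 6 lists with 45 genes, written with earlier results of these data known. Of the 45, 28 reached 1 TPM in all 3 libraries, as did 40.1% of protein-coding genes and 16.7% of all annotated genes. These shares are also the background for the count of each list below. The median level over the 45 was 8.83 TPM, against 174 TPM for the 6 oxidase genes. Of the 34 pathway genes that could be tested for variability, 0 were called by edgeR and 2 had an unadjusted p under 0.05, a share near the 6.88% of all genes tested. Differences in level between lists and the oxidase genes are given as descriptions, since members of a list are not replicates.

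Other catalytic and regulatory genes of the NOX family were at or near 0. None of 9 reached 1 TPM, and their summed level was 0.24, 0.16 and 0.23 TPM. Highest were Noxo1, the organizer related to p47phox that serves Nox1, at 0.13, 0.09 and 0.15 TPM, and Nox1, the colon oxidase, at 0.09, 0.06 and 0.07 TPM. Nox3 and Nox4 each had 1 or 2 counts in 1 library and 0 in the other two, and Duoxa1 had 1 count in replicate 1 only. Duox1, Duox2, Duoxa2 and Noxa1 had 0 counts in all 3 libraries. By a limit of 3 counts in the library where a count is worth most, 0 counts allow up to 0.00954 TPM for Duox1, 0.0114 for Duox2, 0.0355 for Duoxa2 and 0.0354 for Noxa1; such limits cover counting error only.

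All 4 genes for assembly and charge compensation were detected. Cybc1, whose product Eros is needed for a stable gp91phox–p22phox pair, stood at 25.6, 23.3 and 25.1 TPM (24.7 ± 1.18). Hvcn1, the voltage-gated proton channel that balances the charge the oxidase moves, stood at 33.5, 41.1 and 29.3 TPM (34.6 ± 5.98). Rap1a, a small GTPase that copurifies with flavocytochrome b558, averaged 25.5 ± 4.24 TPM and its relative Rap1b 203 ± 25.6 TPM. Cybc1 thus lay well below both chains of the core in each library.

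The relatives and inhibitors of Rac were abundant, apart from Rac3. Cdc42 (249 ± 13.0 TPM), the related GTPase Rhog (171 ± 5.09) and the inhibitors Arhgdib (239 ± 11.5) and Arhgdia (220 ± 13.7), which hold Rac in the cytosol in its GDP-bound form, were all above Rac1 in every library. Rac3, the third Rac paralog, stood at 0.54, 1.39 and 0.82 TPM and so missed the threshold in 2 libraries. Of 10 exchange factors and GTPase-activating proteins 7 were detected. The exchange factors Vav1 (68.7 ± 3.46 TPM), Prex1 (42.5 ± 2.90) and Dock2 (39.3 ± 3.08) and the GTPase-activating protein Abr (47.7 ± 6.44) led. Tiam1, Bcr and Tiam2 fell short, at 0.953, 0.243 and 0.0433 TPM, the first of them above 1 TPM in replicate 1 only.

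Of 11 kinases and lipid enzymes that act on the oxidase 10 were detected, led by the protein kinase C gene Prkcd (86.6, 61.8 and 60.6 TPM), Prkcb (28.0, 36.9 and 46.0 TPM), Akt1 (32.5 ± 2.28 TPM) and Mapk14 (24.9 ± 0.52 TPM). Prkcb and Prkcd encode kinases that phosphorylate p47phox. The lowest of those detected were Pik3c3 (5.23 TPM), which makes the lipid that p40phox binds, its regulatory subunit Pik3r4 (6.57 TPM) and Pik3cg (7.82 TPM). Prkca did not reach the threshold, at 0.33 ± 0.07 TPM. Prkcb was the pathway gene with the lowest adjusted p for variability, 0.247 in edgeR, and was not called.

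Among genes that handle superoxide and peroxide from any source, the dismutases mitochondrial Sod2 and cytosolic Sod1 turn superoxide into hydrogen peroxide. Sod2 stood at 307, 264 and 224 TPM, Sod1 at 72.1, 62.9 and 56.9 TPM, and catalase Cat at 30.4, 40.9 and 24.0 TPM. Sod2 was close in level to Cybb, which stood at 275, 281 and 236 TPM. Extracellular Sod3 and the granule peroxidases Mpo of neutrophils and Epx of eosinophils were at 0.00333, 0.0633 and 0.01 TPM. In a bulk sample, a low level can come from few cells of a type or little RNA per cell, and these cannot be told apart.

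**Figure D4:**
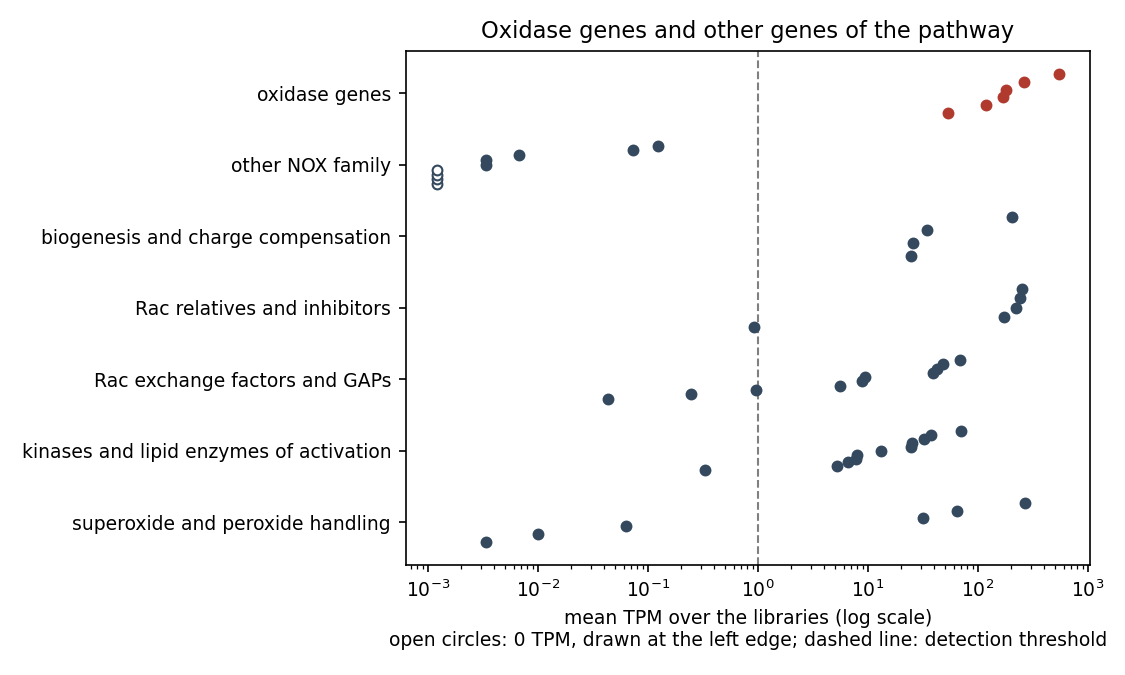
Mean TPM over the 3 libraries (horizontal log axis) of the 6 oxidase genes (red) and of the genes of 6 pathway lists (dark), with 1 point for each gene, spread vertically for visibility. The dashed line is the threshold of 1 TPM and open circles are genes with 0 counts; the other NOX genes lie to the left of the line and all 6 oxidase genes to the right, between 53.6 and 542 TPM.

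Some members share their locus with a gene on the other strand, from which reads could not be told apart if strand was not used in counting. The 2 genes with the highest levels among these partners were Gm20388, a long annotated gene that spans Cyba (9.64 ± 2.36 TPM), and Daglb, named above. Gtf2ird2, at the Ncf1 locus, stood at 0.873 ± 0.0451 TPM, and Gm42502, at the Rac1 locus, at 0.0467 ± 0.0115 TPM. In gene TPM each of these stood below its member by a wide margin. Daglb overlaps the annotated 3′ ends of both Rac1-201 and Rac1-202. In level it was closer to Rac1-201, at 7.33 ± 0.63 TPM, than to Rac1-202, at 50.9 ± 2.07 TPM. In replicates 1, 2 and 3 Rac1-201 had 1957, 3142 and 2525 counts and Daglb 1531, 2850 and 2375. Gm20388 had 1616, 5042 and 3481 counts, against 16991, 36996 and 21247 for Cyba. Cybb, Ncf4 and Rac2 overlap no other annotated gene. In the search of transcripts as transcribed, Cybb and Ncf4 shared no stretch of 31 nt with another gene, whereas Ncf1 shared 30 of 3688 and Cyba 78 of 1069. Opposite strands were not searched.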

How the data were processed

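Per the README notes among the deposited files, values were made on mm10 with GENCODE M21. A gene table and a matching transcript table came from transcriptome alignments, and another transcript table straight from the reads. Neither the programs nor the use of strand is stated in the sources used here. Expected counts (in the other table, estimated counts) are as the authors deposited them, without normalization, per the file headers. TPM are as deposited by the authors, corrected for effective length. Percent values are transcript shares of a gene's TPM, per the file headers. The posterior SD and interval bounds are the authors' deposited values.

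From these, log2 ratios of TPM were taken within each library without a pseudocount. Variability was tested with edgeR 4.0.16 under R 4.3.3, using annotated genes' rounded expected counts, TMM scaling, filterByExpr and the trended dispersion, the deviance being compared with chi-square on 2 degrees of freedom. DESeq2 1.42.0 gave other size factors. Features outside annotated genes held 0.0959 to 0.227% of counts and were left out of library sizes.

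The members and lists were chosen with earlier results of these data known. Named were all 6 members, the 4 highest and up to 4 lowest or undetected genes of each list, the 3 genes most alike to each member, and transcripts with a share of 5% or more; the minor forms Cyba-202 and Ncf1-201 were also named, after their values were seen. No sample was left out.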

Additional observations from a re-analysis of the deposited data

How the results depend on the processing

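With 1 group, the libraries' numbers link nothing: No paired analysis was possible because there is only 1 group. No oxidase gene was called variable under any of the 8 alternatives, and 27 to 32 pathway genes were detected against 28. The second transcript table moved the log2 ratios by more than 1 SD for Cyba to Cybb (1.13), Rac2 to Rac1 (0.91), Ncf1 to Cybb (-0.80) and Rac2 to Ncf1 (0.51). Expected counts, without a length correction, reversed Cyba to Cybb (-2.12) and Rac2 to Ncf1 (-0.31) and moved Ncf4 to Ncf1 (-2.90), Rac2 to Rac1 (1.11), Ncf1 to Cybb (-1.51) and Rac2 to Cybb (-1.82). Complete coding transcripts, an alternative chosen after seeing the data, as were the pair Rac2 to Ncf1 and the rescaled second table, reversed Rac2 to Ncf1 (-0.49) and moved Ncf4 to Ncf1 (-1.96), Rac2 to Rac1 (1.03) and Rac2 to Cybb (-1.14). Posterior mean TPM and a pseudocount of 1 TPM moved none of the 6 ratios by 1 SD. Leaving out 1 library at a time gave 1.00 to 1.06 for Cyba to Cybb, -1.70 to -1.62 for Ncf4 to Ncf1, 0.51 to 0.74 for Rac2 to Rac1, -0.68 to -0.62 for Ncf1 to Cybb, -0.68 to -0.38 for Rac2 to Cybb and -0.0062 to 0.24 for Rac2 to Ncf1, the last reversing without replicate 3. The cause of these moves was not tested. With 3 libraries from 1 donor record, small differences between members lie within reach of library spread. The number of genes called variable was 240 of 12256 with 3 libraries and 82 to 119 with any 2 of them.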
